A study of Mus musculus with 9 samples.

Results

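The genes described here encode the core of the basement membrane: the laminin chains Lama1, Lama4, Lama5, Lamb1 and Lamc1, the collagen IV chains Col4a1 and Col4a2, the nidogens Nid1 and Nid2, and collagen XVIII (Col18a1). They were chosen by name, with earlier results of these data known. Every probe set whose only gene symbol in the platform annotation was one of these 10 was taken, which gave 21 of the 45101 probe sets on the array for 10 of 18194 genes. The samples were renal vesicles cut by laser capture from mouse kidneys at the E12.5 stage of gestation, from wild-type embryos (5 arrays) and from Lim1 mutant embryos (4 arrays). Lim1 (current symbol Lhx1) codes for a LIM-class homeobox regulator needed as nephrons form. The labels name neither the Lim1 allele and strain nor the number of embryos or litters behind an array. Per the series' design text, the 9 samples were biologically independent, each pooling about 30 to 50 vesicles. The captured material is a mixture, so a lower signal from fewer cells of a type and one from less RNA per cell cannot be told apart.

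A basement membrane is the thin sheet of matrix on which an epithelium rests. Laminins are trimers of an alpha, a beta and a gamma chain that polymerise at the cell surface and start the sheet. Collagen IV trimers, of which alpha1-alpha1-alpha2 is the form in nearly every tissue, build a second network that gives the sheet its strength, and nidogens bind both networks. In the kidney, laminin alpha1 is known from the first nephron epithelia, alpha5 from the sheet that replaces it in glomeruli and collecting ducts, and alpha4 from vessels and mesenchyme. The renal vesicle is the stage at which condensed mesenchyme first becomes a polarised epithelium and lays down such a sheet.

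The start sites of 2 loci are shown because they bear on how the members' signals can be read. Col4a1 and Col4a2 lie head to head on chromosome 8 and are transcribed away from each other. In RefSeq (GRCm38.p6) the promoter windows of the pair, each 250 bases before to 50 after a start, share 78 bases. The start of Col4a2, on the plus strand, is at base 11312805 and that of Col4a1, on the minus strand, at base 11312826. The stretch that holds both is printed from the plus strand, at chr8:11312801-11312830, and the capitals mark the 22 bases from one start to the other. It holds a GC box (GGGCGG), the letters bound by Sp1-type factors.
Col4a1 and Col4a2 starts: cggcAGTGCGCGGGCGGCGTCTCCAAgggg

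Col18a1, on chromosome 10, has 2 starts in the same table, 52825 bases apart, and is known to make a short and longer forms from separate promoters. The 250 bases before each start are printed 5′ to 3′ on the minus strand, at chr10:77166531-77166780 for the upstream start and chr10:77113706-77113955 for the internal one. The motifs searched, on both strands, were the GC box (GGGCGG), the CCAAT box (CCAAT) and the TATA box (TATAAA), and the capitals mark each match. The upstream window held 3 GC boxes and 1 CCAAT box, and the internal window held none of the 3 motifs.
Col18a1 start 1: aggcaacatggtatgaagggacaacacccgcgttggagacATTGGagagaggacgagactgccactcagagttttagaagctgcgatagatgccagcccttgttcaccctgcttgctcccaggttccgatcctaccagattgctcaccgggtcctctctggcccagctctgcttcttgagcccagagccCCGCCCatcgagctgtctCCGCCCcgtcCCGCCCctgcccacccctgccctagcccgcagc
Col18a1 start 2: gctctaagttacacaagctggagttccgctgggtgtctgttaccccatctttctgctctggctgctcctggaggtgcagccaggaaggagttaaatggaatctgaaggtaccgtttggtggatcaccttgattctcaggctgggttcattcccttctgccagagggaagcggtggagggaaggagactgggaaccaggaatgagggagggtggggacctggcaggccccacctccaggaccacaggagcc

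Promoter windows matched 6 of the 10 genes, 7 windows in all: Lama5, Lamb1, Col4a1, Col4a2, Nid1 and both of Col18a1. The 7 windows held 59.7% to 74.0% G and C, against a median of 52.7% over all windows. A GC box was present in 6 of these 7, against 35.7% of the 32851 windows in the table. The GC box printed between the Col4a1 and Col4a2 starts lies in the 78 bases their windows share, so it counts in both. No TATA box was found in any of the 7, against a share of 13.6% over all windows. These matches describe the letters only. The counts of GC boxes by window were 4 for Lama5, 2 for Lamb1, 1 for Col4a1, 3 for Col4a2 and 1 for Nid1. The Lama5 window was the only one of these 5 without a CCAAT box, which 37.4% of all windows held. Which start feeds the signal of a given probe set was not tested.

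Wild-type arrays 3 and 1 stood somewhat apart from the rest, since their correlations with all others averaged 0.784 and 0.802, whereas the remaining 7 averaged between 0.826 and 0.864. Without both, 13 of the 17 tested member probe sets had differences above 0, none passed in limma, and 0 of all probe sets passed, against 9 with every array included.

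Of the 21 probe sets, 17 were bright enough to be tested and every gene kept at least 1. The 4 below the filter were 1 of Lama4, 1 of Lama5 and 2 of Nid1, with signals from 2.66 to 814 over the 9 arrays. Just inside the filter, which lay at 7.17 on the log2 scale, was a dim probe set of Lamc1 at 7.36, and just outside it was that of Lama4 at 6.50. No member passed the test. In limma, 0 of the 17 had an adjusted p under 0.05, where 0.0333% of all 27022 tested probe sets did. At an unadjusted p under 0.05 there were 2 of 17, both of Col18a1, and both higher in the mutants, against 6.67% over all tested probe sets in either direction and 3.8% on the higher side. The differences (mutant minus wild type, log2 scale) ran from -0.48 to 1.01, with 15 above 0 and 2 below and a median of 0.32. Over all tested probe sets the median was 0.03 and 52.7% lay above 0. By brightest probe set, 8 of the 10 genes were above 0 (56.5% of all 13226 genes were) and 2 below. Of the 15 above 0, 3 lay below 0 with median centring of the arrays (2 of Lamb1 and the brighter of Col4a1). Several probe sets come from the same gene, so the 17 values are not independent.

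**Figure D1:**
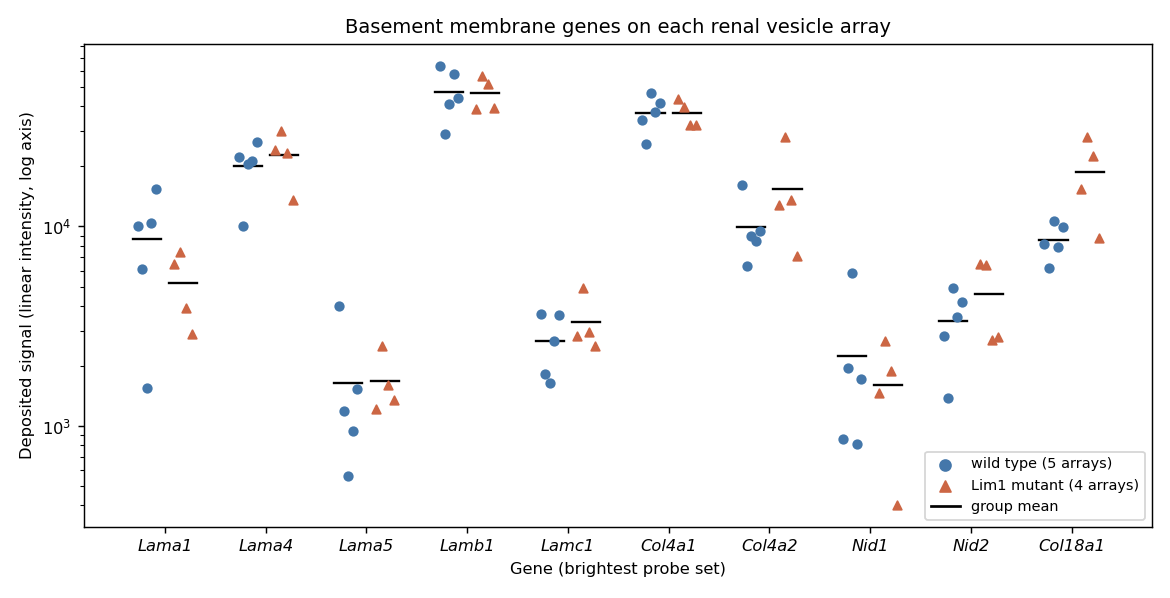
Deposited signal (linear intensity, log axis) of the brightest probe set of each gene on each array, with circles for the 5 wild-type arrays, triangles for the 4 Lim1 mutant arrays and a bar for each group mean. Groups overlap for every gene shown, and for Col18a1 3 of the 4 mutants, at 15409 to 27991, lie above the highest wild-type array at 10606.

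The laminin alpha chains differed in spread, widest at Lama1 among the brightest laminin probe sets. Coordinates of the genes are those of RefSeq on GRCm38.p6. Lama1 (probe set 1418153_at, chr17:67697127-67822645), the alpha chain of early nephron epithelia, read 10043, 6101, 1547, 10391 and 15363 on wild-type arrays 1 to 5. On mutant arrays 1 to 4 it read 6447, 7477, 3925 and 2905. All mutant arrays lay inside the wild-type range, whose lowest point, array 3, stood far below the other 4. The difference was -0.48 ± 0.59 on the log2 scale (SE, 5 and 4 arrays, limma adjusted p = 0.92), with a 95% interval from -1.77 to 0.81. Without wild-type array 3 it was -1.01 (limma adjusted p = 0.602). That array also read lowest of the wild types for the renal vesicle markers, as given below.

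Lama4 (1424807_at, chr10:38965515-39110188), the alpha chain of vessels and mesenchyme, read 22198, 10107, 20559, 21334 and 26496 in the wild type and 24154, 30229, 23407 and 13634 in the mutants. Each group held 1 low array, and the ranges overlapped. The difference was 0.22 ± 0.29 (limma adjusted p = 0.929, interval -0.42 to 0.86), and it was -0.01 without wild-type array 2. Endothelial marker levels by array are given below.

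Lama5 (chr2:180176373-180225904), the alpha chain of the mature epithelial sheet, had 2 tested probe sets. At the brighter one (1427010_s_at) the wild-type arrays read 3998, 1195, 559, 941 and 1540, and the mutant arrays 1218, 2512, 1605 and 1352. Wild-type array 1 was the highest of all 9 and the mutants lay between the wild-type extremes. The differences were 0.28 ± 0.54 here and 0.65 ± 0.53 at the other (1427009_at), with limma adjusted p of 0.952 and 0.868. Without wild-type array 1 they were 0.66 and 0.95, and the first was 0.01 without wild-type array 3. The suffix _s_at marks a probe set whose probes match more than 1 transcript.

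The beta and gamma chains are shared by most laminins. Lamb1 (chr12:31265146-31329644), the beta chain, was bright at 1424114_s_at, with 63712, 29116, 41227, 58285 and 43862 in the wild type and 38563, 56800, 51954 and 39344 in the mutants. The mutant range fell entirely inside the wild-type range. The difference was 0.03 ± 0.17 (limma adjusted p = 0.985). Its interval of -0.33 to 0.39 bounds the fold at 0.794 to 1.31 for this probe set only. Residual spread at this probe set was 0.26 (log2 SD), lower than at all but 3.98% of tested probe sets. Another Lamb1 probe set (1424113_at) gave 0.10 ± 0.25. The 2 dimmer ones (1446180_at and 1451241_at) gave 0.41 ± 0.76 and 0.18 ± 0.43, with fold intervals of 0.42 to 4.19 and 0.594 to 2.17. Over the 9 arrays they correlated with the brightest Lamb1 probe set at 0.08 and -0.39.

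Lamc1 (1423885_at, chr1:153218922-153332786), the gamma chain, read 3637, 1820, 1649, 2676 and 3590 in the wild type and 2829, 4942, 2966 and 2521 in the mutants. Mutant array 2 lay above all wild-type arrays and the other 3 among them. The difference was 0.34 ± 0.37 (limma adjusted p = 0.906, interval -0.47 to 1.15), and 0.13 without mutant array 2. A second Lamc1 probe set (1423886_at), near the filter, ranged from 14.5 to 1245 within the wild type and gave 0.32 ± 0.95. Its interval of -1.75 to 2.40 was the widest among the members.

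Collagen IV was measured by 2 probe sets of Col4a1 and 1 of Col4a2. Col4a1 (chr8:11198423-11312889), the alpha1 chain, read 34155, 25956, 46776, 37358 and 41492 in the wild type at its brighter probe set (1452035_at). The mutants read 43712, 39878, 32228 and 32258 there, all inside the wild-type range as deposited. After normalisation, mutant array 1 lay above and mutant array 3 below all wild-type arrays. The difference was 0.04 ± 0.20 (limma adjusted p = 0.986), with an interval of -0.40 to 0.47. This bounds the fold at 0.756 to 1.39 for this probe set only. The other Col4a1 probe set (1426348_at) read 5295, 2444, 4833, 5454 and 3026 against 4698, 7496, 7506 and 3047. The 2 Col4a1 probe sets were not correlated over the 9 arrays. At 1426348_at mutant arrays 2 and 3 exceeded the wild-type range, and the difference was 0.41 ± 0.38 (limma adjusted p = 0.884, interval -0.42 to 1.23). It was 0.22 without wild-type array 2, 0.23 and 0.24 without mutant arrays 2 and 3, and 0.68 without mutant array 4.

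Col4a2 (1424051_at, chr8:11312805-11449287), the alpha2 chain, read 16141, 6370, 8970, 8488 and 9525 in the wild type and 12789, 28009, 13554 and 7150 in the mutants. Mutant array 2 was by far the highest, mutant array 4 was among the lowest, and the other 2 lay above 4 of the 5 wild-type arrays. The difference was 0.54 ± 0.36 (limma adjusted p = 0.828, interval -0.25 to 1.33). It was 0.22 without mutant array 2 and 0.85 without mutant array 4. Although both starts lie within 22 bases, the arrays that read highest after normalisation differed: mutant array 1 for the brighter Col4a1 probe set and mutant array 2 for Col4a2. The dimmer Col4a1 probe set was like Col4a2 in this, highest on mutant array 2 and lowest on wild-type array 2.

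Nidogens link the laminin and collagen networks. Nid1 (1416808_at, chr13:13437602-13512275) read 864, 1959, 5829, 810 and 1716 in the wild type and 1465, 2665, 1880 and 403 in the mutants. The extremes were single arrays, wild-type array 3 above and mutant array 4 below all others. The difference was -0.38 ± 0.69 (limma adjusted p = 0.95), and leaving out either array turned it, to 0.06 without wild-type array 3 and 0.20 without mutant array 4. Wild-type array 3 also held the highest stroma, endothelium and macrophage marker levels, and the part of those cells in the Nid1 signal was not tested.

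Nid2 (1423516_a_at, chr14:19751257-19811787) read 2828, 1387, 4896, 3513 and 4169 in the wild type and 6451, 6442, 2701 and 2802 in the mutants. Mutant arrays 1 and 2 lay above all wild-type arrays, while mutants 3 and 4 each lay below 4 of the 5. The difference was 0.46 ± 0.44 (limma adjusted p = 0.89, interval -0.51 to 1.44), and it was 0.16 without wild-type array 2.

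Col18a1 (chr10:77052178-77166530), the collagen whose C-terminal fragment is endostatin, had the largest differences among the members. At 1418237_s_at it read 4957, 3900, 4542, 4371 and 4120 in the wild type and 6045, 9282, 6479 and 6482 in the mutants. Every mutant array lay above every wild-type array, the only tested member probe set without overlap, where 2.25% of all tested probe sets had none, 1.37% with the mutants higher. At 1426955_at it read 8180, 6220, 10606, 7854 and 9979 in the wild type and 15409, 27991, 22565 and 8735 in the mutants. There 3 mutants lay above the wild-type range and mutant array 4 inside it.

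The Col18a1 differences were 0.68 ± 0.24 and 1.01 ± 0.31, or 1.60-fold and 2.02-fold, with 95% intervals of 1.12 to 2.29 and 1.27 to 3.22. Neither passed over all probe sets (limma adjusted p = 0.696 and 0.647, unadjusted p = 0.0144 and 0.00688), and they ranked 554 and 276 among the 27022 by p. Residual spread at 1418237_s_at was 0.21, lower than at all but 2.09% of tested probe sets. Both differences stayed above 0 under each of the 19 alternatives run, from 0.54 to 0.76 and from 0.80 to 1.32. The largest, 1.32 at 1426955_at, followed from leaving out mutant array 4 (limma adjusted p = 0.306). That array was the only mutant inside the wild-type range there, so without it neither probe set had overlap. The smallest at each probe set, 0.54 and 0.80, followed from leaving out mutant array 2 (limma adjusted p = 0.999 for both).

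**Figure D2:**
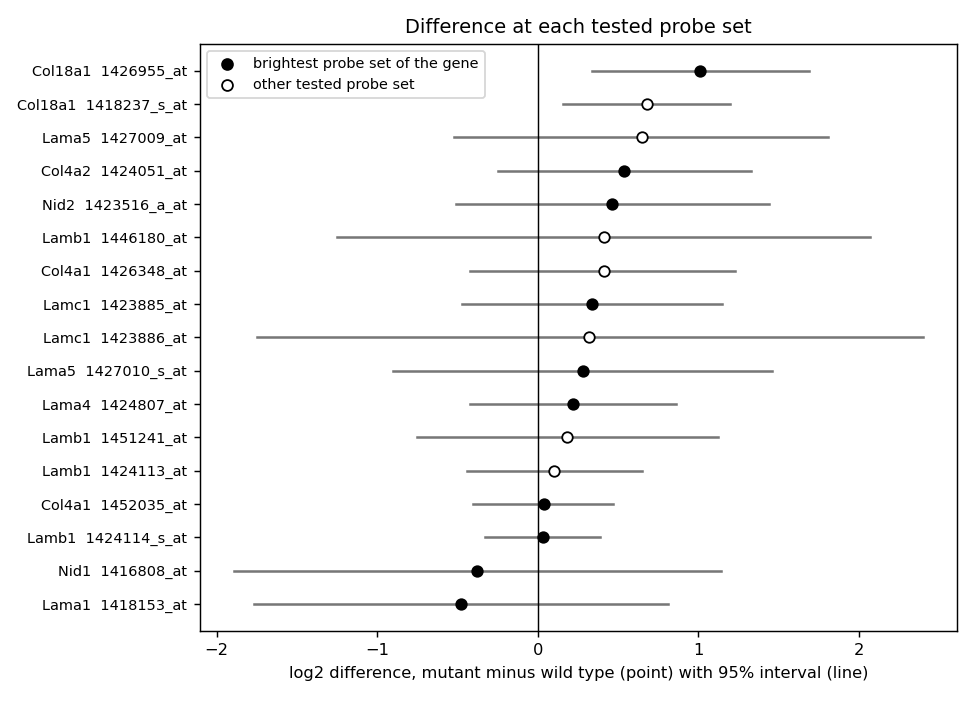
Difference between mutant and wild-type arrays (log2, x axis) at each of the 17 tested probe sets (y axis), with filled points for the brightest probe set of a gene, open points for its others, and lines for the 95% interval before adjustment. The 2 intervals of Col18a1 lie above 0, and the other 15 include 0.

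By array, on the normalised scale, mutant array 2 was the highest of the 9 for 5 of the 10 genes at their brightest probe sets (Lama4, Lamc1, Col4a2, Nid2 and Col18a1), and 9 of the 10 lay above their own mean there. Wild-type array 2 was the lowest for 5 (Lama4, Lamb1, Col4a2, Nid2 and Col18a1). On mutant array 4, none of the 10 lay above its mean. The median log2 deviation of the 10 genes from their means was 0.82 on mutant array 2, while wild-type array 2 had -0.54 and mutant array 4 had -0.35. The other 6 arrays were between -0.16 and 0.21. On mutant array 2 the smallest deviations were those of Lamb1 and the brighter Col4a1 probe set, at 0.16 and -0.04. No spread for other sets of 10 genes was computed.

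Marker lists of other cell types were set beside these values. All 12 listed renal vesicle genes had a probe set above the filter, among them Wnt4, Pax8, Jag1 and Cdh6. So did all 14 stroma markers and most markers of the other lists, so passing the filter does not identify the structure. Of the renal vesicle genes none was below the filter. Of the 12, 4 had differences above 0 and 8 below, with a median of -0.51, and none passed. The 3 with an unadjusted p under 0.05, where 7.73% of all genes had one, were all lower in the mutants. They were the Notch ligands Jag1 (-0.52) and Dll1 (-1.33) and the Wnt antagonist Dkk1 (-1.81), with a lowest limma adjusted p of 0.651. Their part in the members' values was not tested. At the same level the lists below held 1 stroma gene and 2 cap genes, higher in the mutants, and 1 bud gene, lower. The endothelial and macrophage lists held none. That bud gene, Emx2 (-2.16), had the lowest limma adjusted p of the marker genes, 0.387. The summed signal of the renal vesicle list ranged from 109669 to 289634 in the wild type, lowest on array 3, and from 138959 to 156719 in the mutants. Lhx1 itself split by probe set, with 6.88 to 10.5 in the mutants against 2327 to 17587 in the wild type at 1421951_at (log2 difference -6.64 ± 0.57, limma adjusted p = 0.00329), and 4108 to 4951 against 1696 to 18555 at 1450428_at (-0.86 ± 0.58, limma adjusted p = 0.833).

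Endothelial cells are known makers of Col4a1, Col4a2, Lama4, nidogens and Col18a1. Of 15 endothelial markers, 13 were tested, all 13 had differences below 0 with a median of -0.63, and none passed. Pecam1 and Tie1 were below the filter. The summed endothelial signal was 5919 to 31834 in the wild type, highest on arrays 3 and 4 (31834 and 19435), and 6177 to 8003 in the mutants. Of the members named here, Nid1 had a difference below 0 (-0.38) and the others had differences above 0 at their tested probe sets. Without wild-type array 3 the Nid1 difference was 0.06, and those of Col18a1 were 0.70 at 1418237_s_at and 1.09 at 1426955_at. The part of endothelial cells in the members' values was not tested.

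Stromal cells also make matrix. All 14 stroma markers were tested, 6 above 0 and 8 below, with a median of -0.32, and none passed. Their summed signal was 193857 on wild-type array 3, 22012 to 58020 on the other wild-type arrays, 61398 and 50565 on mutant arrays 2 and 3, and 18569 and 24707 on mutant arrays 1 and 4. Mutant arrays 2 and 3, with the higher stroma signal, also had higher signals of Col18a1 at 1426955_at and of Nid1 than mutant arrays 1 and 4. This was not particular to these genes, since the brightest probe sets of Lama5, Lamb1, Lamc1 and Col4a2 did the same. Those of Lama1, Lama4, Col4a1 and Nid2 did not. Nor did Col18a1 at 1418237_s_at, though mutant arrays 3 and 4 were nearly equal there (6479 and 6482). The dimmer Col4a1 probe set, 1426348_at, did so, at 7496 and 7506 against 4698 and 3047. The other tested probe sets of Lama5, Lamb1 and Lamc1 did not. In the wild type, array 3, with the highest stroma signal, also had the highest Col18a1 at 1426955_at, and array 2, with the second highest stroma signal, had the lowest. The part of stroma in these signals was not tested.

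Of 13 ureteric bud markers, 10 were tested, 1 above 0 and 9 below, with a median of -0.89. Hoxb7 and Gata3 were below the filter. Their summed signal peaked on wild-type array 2 at 86733, the array lowest for 5 of the 10 genes, against 20003 to 34577 on the other wild-type arrays and 9840 to 20828 in the mutants. Cap mesenchyme markers, with 10 of 11 tested and Cited1 below the filter, summed to 27627 to 40763 and 33401 to 39120. Macrophage markers, with 9 of 11 tested and Aif1 and Ptprc below the filter, summed to 1173 to 26069 and 3421 to 6117, with the highest value on wild-type array 3. No cap or macrophage marker passed, nor did any of the bud. The part of these cells in the members' values was not tested.

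**Figure D3:**
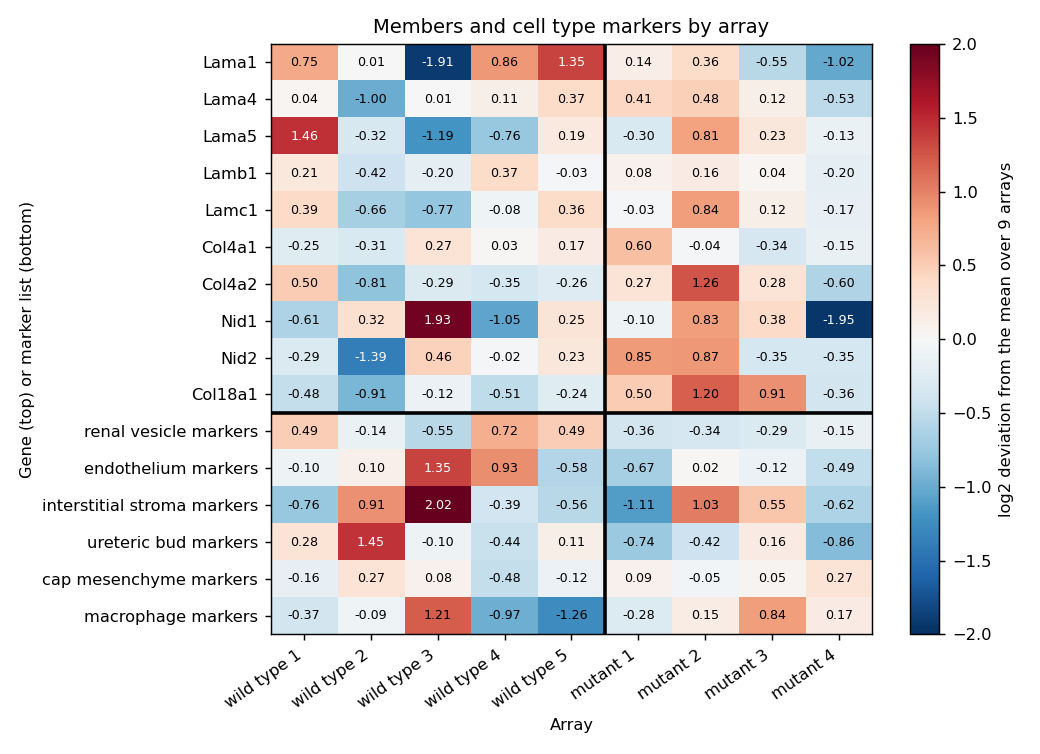
Deviation from the mean over the 9 arrays (log2, colour and printed value) for the brightest probe set of each gene (top) and the median deviation of each marker list (bottom), by array. Mutant array 2 is above 0 for 9 of the 10 genes, wild-type array 3 has the highest stroma and endothelium levels (2.02 and 1.35), and wild-type array 2 has the highest ureteric bud level (1.45).

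The remaining genes of the basement membrane were taken from 6 lists. Of 74 listed genes, 60 were tested, 35 above 0 and 25 below. None passed in limma, where 0.0529% of 13226 genes did, and 8 had an unadjusted p under 0.05, or 13.3% against 7.73% over all genes. Their median difference was 0.11, beside 0.07 over all genes. The groups did not overlap at 2 of the 60 (3.33%, against 2.77% over all genes).

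Among the other laminin chains, 4 of 6 were tested, with a median of 0.03. Lamb2, the beta chain of mature glomerular and muscle sheets, read 1471 ± 835 on the 5 wild-type arrays and 1260 ± 335 on the 4 mutant arrays (mean ± SD), a log2 difference of -0.11 ± 0.43. Lamb3 was below the filter. Of the other collagen IV chains, Col4a5 and Col4a6 were tested (0.05 and 0.34), whereas Col4a3 and Col4a4, the chains of the mature glomerular membrane, were below the filter, with group means from 48.0 to 129.

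Other components of the sheet had a median of -0.31, with 6 of 16 tested genes above 0 and 10 below. Perlecan (Hspg2), the large heparan sulfate proteoglycan, read 2049 ± 598 and 1659 ± 333 (-0.28 ± 0.36, limma adjusted p = 0.927), although its other probe set gave 1.63. Sparc, a collagen-binding matricellular protein, read 4876 ± 1551 and 10539 ± 4863 (0.99 ± 0.38, limma adjusted p = 0.72), with 0.37 and -0.88 at its other probe sets. Fras1 read 4580 ± 1289 and 2467 ± 1548 (-1.11 ± 0.49, limma adjusted p = 0.746, ranges overlapping), and its other probe set gave -2.62. Nephronectin (Npnt), the integrin alpha8 ligand, read 2921 ± 1660 and 2131 ± 778 (-0.34 ± 0.47), and its 3 other probe sets gave -0.12 to -0.16.

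Of the laminin and collagen receptors, 11 of 14 were tested, 8 above 0 and 3 below, with a median of 0.28. Itga6, which pairs into laminin-binding integrins, read 9877 ± 3307 and 10287 ± 2604 (0.11 ± 0.32). Itgb1, the common beta subunit, read 3642 ± 1535 and 3641 ± 636 (0.13 ± 0.41). Dystroglycan (Dag1), which binds laminin LG domains, read 26875 ± 4676 and 34372 ± 6962 (0.37 ± 0.18, limma adjusted p = 0.785), with -0.40, -0.16 and -0.18 at its other probe sets.

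The 16 tested genes of collagen IV synthesis and crosslinking, of 18 listed, gave a median of 0.25, with 11 above 0 and 5 below. P3h2, a collagen prolyl 3-hydroxylase, had the largest difference of the 60 genes, with 820 ± 419 on wild-type arrays and 254 ± 233 on mutant ones (-1.87 ± 0.68, limma adjusted p = 0.696, ranges overlapping). Serpinh1, the collagen chaperone HSP47, read 27388 ± 5267 and 38161 ± 13612 (0.42 ± 0.19, limma adjusted p = 0.748). Colgalt1, which adds galactose to collagen hydroxylysine, was 1 of the 2 genes without overlap, at 1791 to 3453 in the wild type and 3542 to 4773 in the mutants (0.66 ± 0.29, limma adjusted p = 0.748). Its other probe set gave 1.46. The other gene without overlap was Reck, a membrane-anchored inhibitor of matrix metalloproteinases, at 2587 to 5680 and 5768 to 7521 (0.69 ± 0.29, limma adjusted p = 0.732). Reck belonged to the proteases and inhibitors, where 11 of 12 were tested, 6 above 0 and 5 below, with a median of 0.11.

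**Figure D4:**
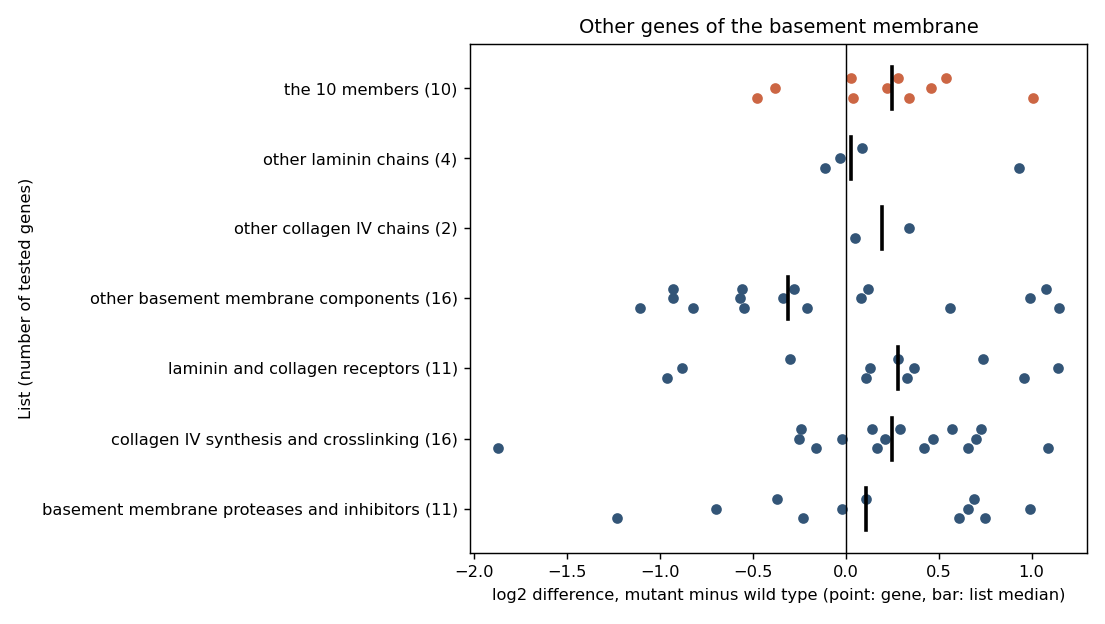
Difference between mutant and wild-type arrays (log2, x axis) of each tested gene at its brightest probe set (points) with the list median (bars), for the 10 members and the 6 other lists (y axis). Medians run from -0.31 for the other basement membrane components to 0.28 for the receptors, and every list with more than 2 tested genes spans 0.

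The genes whose profile was most like that of a member were also listed, as a description over 9 arrays that share their labelling and scaling. Among 13216 other genes, the nearest to the brighter Col4a1 probe set by Pearson's r were Tmx4 (0.899), Pcx (0.88), Ago2 (0.875), Edem3 (0.873) and Cramp1l (0.868). Nearest to Lamc1 were Ap4e1 (0.974), Dnajb12 (0.94), Tgm6 (0.935), Cmtr1 (0.922) and C130046K22Rik (0.921). Without the 2 arrays farthest from the median of the member, r was 0.542 to 0.916 for the first 5 genes and 0.835 to 0.962 for the second 5. The highest of many values over so few arrays is high by selection, and none of these genes was a member or a listed gene.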

How the data were processed

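The authors deposited 1 linear intensity value per probe set and array, from GCOS, per the submitters' processing notes, with algorithm, version and scaling not given in the sources used here. Labelling with biotin used a kit of 2 rounds, per the labels' protocols. The mean of the deposited values without the lowest and highest 2% was 1500 on each array, and array medians were 144 to 195. The number of arrays, 5 and 4, limits precision. Gene symbols came from the platform annotation.

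Intensities were transformed as log2(value + 42.4), the 25th percentile, and quantile normalised. For dim probe sets, fold changes are understated on this scale. After 64 control probe sets were removed, the 27022 with a mean at or above the 40th percentile entered a limma 3.58.1 fit (R 4.3.3, lmFit, eBayes with trend, two-sided, group only), with Benjamini-Hochberg adjustment over all of them at 0.05. The fit was tested on simulated data. Signals are as deposited. A gene was represented by its brightest probe set. Signals of different probe sets were not compared as amounts, but the summed marker signals add them, so the brightest probe sets weigh most. Those sums include listed genes below the filter.

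The members and lists were chosen with earlier results of these data known. Named were all members, Hspg2, Lamb2, Itga6, Itgb1, Dag1, Serpinh1, Sparc and Npnt. Also named were the gene without overlap with the largest difference in each list, and the 5 genes most like Col4a1 and Lamc1. Fras1, Lamb3, P3h2, the other collagen IV chains and single marker genes were named after their values were seen. Alternatives covered normalisation, filter, pseudocount, variance trend, array weights, pairing and left-out arrays.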

Additional observations from a re-analysis of the deposited data

Results flagged for a closer look

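Within 42 groups of member values (21 probe sets, wild-type and mutant arrays apart), 3 held an array far from the rest by Dixon's test on the normalised log2 scale, where chance gives about 1 in 20, or 2.1. For Lama4 at 1424807_at, wild-type array 2 read 10107 against 20559 to 26496 on the other wild-type arrays (gap over range 0.736). For Lama5 at 1459614_at, a probe set below the filter, mutant array 1 read 64.3 against 9.57 to 13.1 on the other mutants (0.919). For Nid1 at 1448469_at, also below the filter, wild-type array 2 read 173 against 7.05 to 26.1 on the other wild-type arrays (0.748).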

How the results depend on the processing

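No member probe set and no listed pathway gene passed in limma under any alternative run, and the lowest adjusted p of a member was 0.306. Of 322 member values under the alternatives, 301 kept their direction and 21 did not, all of them at 8 of the 17 probe sets. Over all probe sets 9 passed, 3 to 8 with each array left out in turn, and 0 without wild-type arrays 1 and 3 (2001 at an unadjusted p under 0.05). With each array left out, the member probe sets without overlap numbered 1 to 2. With median centring the differences of Lamb1 at 1424113_at and 1424114_s_at and of Col4a1 at 1452035_at were -0.01, -0.08 and -0.09. That scaling put 12 of 17 members above 0, against 15. Lamb1 at 1446180_at was -0.01 with array weights and -0.44 without wild-type arrays 1 and 3, and Lamc1 at 1423886_at was -0.59 there. With each array left out, the ranges were -0.01 to 0.43 for Lama4 at 1424807_at, -0.02 to 0.20, -0.07 to 0.12, -0.04 to 1.01 and -0.02 to 0.32 for Lamb1 at 1424113_at, 1424114_s_at, 1446180_at and 1451241_at, -0.22 to 1.06 for Lamc1 at 1423886_at, -0.16 to 0.15 for Col4a1 at 1452035_at and -0.73 to 0.20 for Nid1. The cause was not tested.

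Replicate numbers were shared between the groups, but same-numbered arrays did not deviate together (correlations -0.105 to 0.0537, 4 pairs). Whether same-numbered arrays share more than a number cannot be told from so few pairs. With the replicate number as a block, over 8 arrays, 0 probe sets passed in limma over the whole table (1761 at an unadjusted p under 0.05) and 0 members did. Of the 4 mutant arrays, 1 correlated best with its own number.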
